A study of Mus musculus with 282 samples.

Results

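Hematopoietic stem cells (HSCs) of adult mice, sequenced one by one, were divided by whether they carried transcripts of MHC class II. A cell was called class II-expressing when at least 2 of the 4 genes H2-Aa, H2-Ab1, H2-Eb1 and Cd74 reached 10 CPM, the count scaled by the cell's total of gene counts. It was called class II-negative when none of the 4 did, and cells with 1 gene were left out of the comparison. The members of both classes were thus chosen by the measured levels of these 4 genes. Of 282 sequenced cells, 232 had at least 100000 gene counts and 1000 detected genes and were kept. Among these, 106 cells were class II-expressing, 70 were class II-negative and 56 had 1 gene. The title of the study concerns the mitotic activity of primitive HSCs, and class II was not its stated subject.

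MHC class II molecules present peptides from outside the cell to CD4+ T cells and are best known from B cells, dendritic cells and macrophages. H2-Aa and H2-Ab1 encode the alpha and beta chains of I-A, H2-Eb1 encodes the beta chain of I-E, and Cd74 encodes the invariant chain that fills the groove during transport. Cathepsins, among them cathepsin S (Ctss), trim the invariant chain, and the H2-DM heterodimer (H2-DMa with H2-DMb1 or H2-DMb2) then exchanges its remnant for peptide, a step that H2-O modulates. Transcription of these genes runs through a shared promoter element, the X and Y boxes, bound by the RFX complex, CREB and NF-Y, which recruit the coactivator Ciita.

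Sorting for the LSK CD48-/lo CD150+ phenotype drew on 6 mice of 12 to 22 weeks in 2 independent experiments. The mice were homozygous for both a reverse tetracycline transactivator at R26 (R26 rtTA/rtTA) and a doxycycline-responsive H2B-GFP at Col1A1 (Col1A1 H2B-GFP/H2B-GFP), and they were not induced. Cells of both classes occurred in every set and shared this genotype, so no treatment or genotype separates them. Each well was sequenced as its own polyA library. The libraries carry numbers beginning L32 or L29 and codes HSC-2 to HSC-5, which give 6 sets: 4 in series L32 and 2 in series L29. The labels name no mouse, so sets and plates are not known to be independent animals. All p-values below measure the spread between sets or summed plates, which may be technical. The reads carry no molecular identifiers, and intervals cover counting error only.

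Kept cells held 116009 to 1680714 gene counts with a median of 280096, so that 10 CPM stood for 2.80 reads in the median cell. All 30 genes of an HSC list, which includes Angpt1, Mecom, Hlf, Kit and Ly6a, reached 10 CPM in at least 10% of the class II-expressing cells and of the class II-negative cells. Cells of L29 HSC-4 differed from the rest, at a median of 4151 detected genes and a mitochondrial share of 6.66%, against 5126 to 5685.5 genes and 3.28 to 3.73% in the other 5 sets.

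The share of class II-expressing cells was higher in the sets of one library series than in those of the other. It was 81.8% in L32 HSC-2, 61.4% in L32 HSC-3, 57.9% in L32 HSC-4 and 48.7% in L32 HSC-5, against 21.7% in L29 HSC-3 and 23.3% in L29 HSC-4. The ranges did not overlap, with 86 of 143 L32 cells (60.1%) and 20 of 89 L29 cells (22.5%) in the class. The exact 95% intervals were 51.6 to 68.2% in L32 and 14.3 to 32.6% in L29. The mean share of the sets was 62.4 ± 14.0% in L32 (SD, n = 4) and 22.5 ± 1.07% in L29 (SD, n = 2), a difference of 39.95 points. An exact two-sided permutation test over the 6 sets gave p = 0.0667, the smallest value its 15 arrangements allow. It could not fall under 0.05 and so cannot decide whether the series differ. Whether the series are the 2 experiments is not given in the labels, and mice, experiment and library preparation cannot be told apart here. Class II-negative cells made up 19.6% of L32 cells and 47.2% of L29 cells, so values pooled over sets also carry the mix of series. Results are therefore given mainly within sets or within series.

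**Figure D1:**
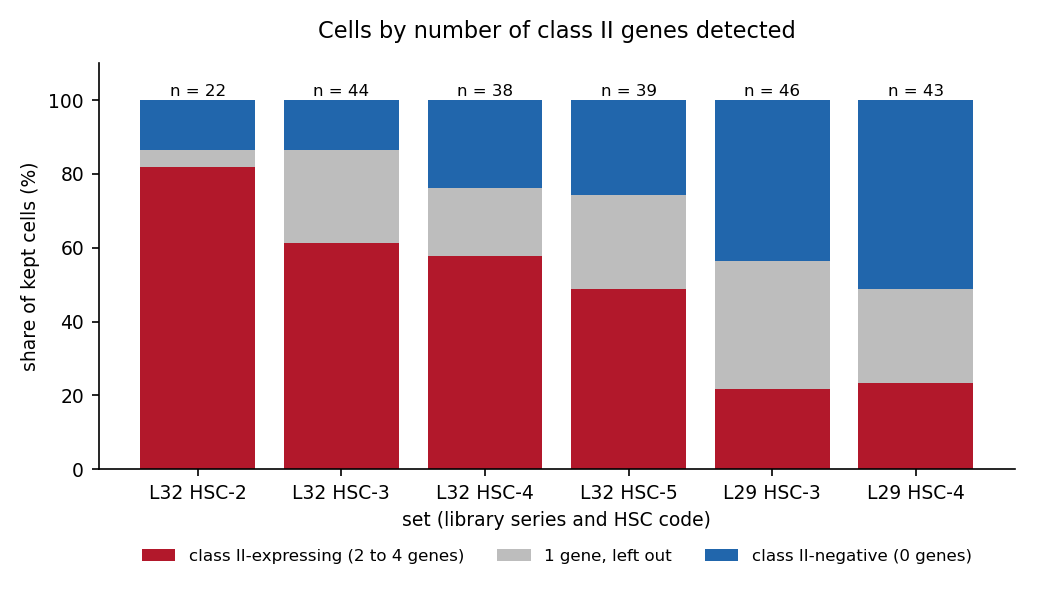
Share of kept cells (%) that were class II-expressing, had 1 of the 4 genes or were class II-negative, in each set, with the number of cells above each bar. The 4 L32 sets hold 48.7 to 81.8% class II-expressing cells and the 2 L29 sets 21.7 and 23.3%.

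The 4 genes defined the classes, and their levels are given as a description. Transcripts of the class II-expressing cells were well above the threshold. The second-highest of the 4 genes had a median of 321 CPM in these cells, and 5 of 106 had it under 20 CPM. The values nearest the threshold were 10.9 CPM for the second gene of a class II-expressing cell, 9.00 CPM for the second gene of a left-out cell and 7.93 CPM for the highest gene of a class II-negative cell. Cd74 was at 10 CPM or more in 84.9% of class II-expressing cells, H2-Ab1 in 83.0%, H2-Aa in 74.5% and H2-Eb1 in 63.2%. Per kilobase of annotated exon the summed counts came to 335 CPM for Cd74, 274 for H2-Aa, 236 for H2-Eb1 and 227 for H2-Ab1 in class II-expressing cells. In class II-negative cells these levels were 0.204 CPM per kilobase for Cd74, 0.128 for H2-Aa, 0.0406 for H2-Eb1 and 0.411 for H2-Ab1. The 4 genes thus lay within a narrow range of each other where the class was expressed.

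Among the 232 kept cells, 41 had all 4 genes, 70 had none, 24 had Cd74 alone and 16 had H2-Ab1 alone. The summed level of the 4 genes had a median of 205 CPM in cells with 1 gene, 436 CPM with 2, 961 CPM with 3 and 2357 CPM with all 4. The highest cell reached 9781 CPM. This order is in large part fixed by the grouping, which used the same 4 genes. Each pair of genes was correlated across the 232 cells with Spearman's rho between 0.485 for H2-Ab1 with Cd74 and 0.579 for H2-Aa with H2-Eb1, where the points share library depth and set. Of the 72 cells with H2-Eb1, 79.2% also had Cd74 and 76.4% had H2-Ab1.

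**Figure D2:**
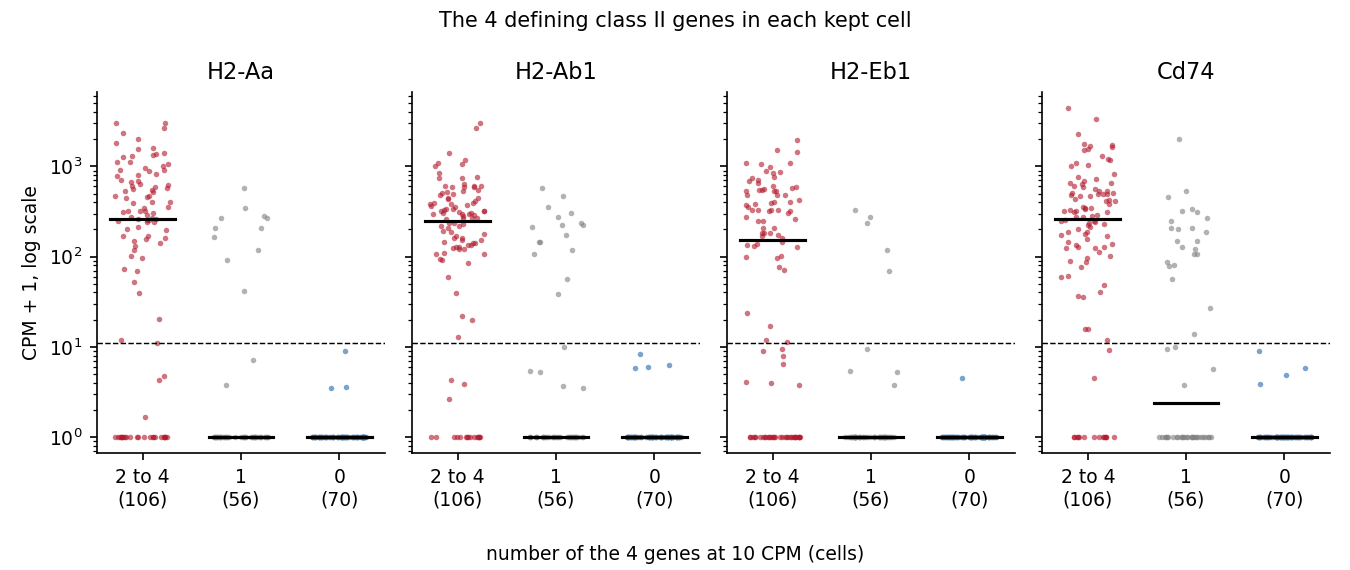
CPM + 1 on a log scale of H2-Aa, H2-Ab1, H2-Eb1 and Cd74 in every kept cell, by how many of the 4 genes reached 10 CPM (dashed line), with black bars at the medians. Values in the 106 class II-expressing cells spread over about 3 orders of magnitude, and the highest value in the 70 class II-negative cells is 7.93 CPM.

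RefSeq promoters (GRCm38.p6, 250 bases before to 50 after the start) were held for 8 of 10 class II genes searched. H2-Ab1 and Ciita had no entry. The letters searched on both strands were GATTGG, the core of the Y box that NF-Y binds, and AACNNATG, matched to the X box; they were chosen after the promoters had been read. GATTGG stood in 16.1% and AACNNATG in 8.86% of 32851 mouse promoters. The X letters followed by the Y letters 10 to 30 bases on, on the same strand and with no overlap, stood in 25 of these promoters (0.0761%). Those 25 include 5 of the 8 class II genes, namely H2-Eb1, H2-Eb2, H2-DMb1, H2-DMb2 and H2-Ob. H2-Aa, H2-Oa and H2-DMa held the Y letters without the X letters, and H2-DMa in 1 of its promoters only. The promoters below are shown because their genes have the largest class II chain levels or, for H2-DMb1, the clearest difference outside the defining genes. Each runs 5′ to 3′ on its gene's strand, with matches in capitals. The H2-Aa promoter (chr17:34287774-34288073, minus strand) holds the Y letters only. The H2-Eb1 promoter (chr17:34305617-34305916, plus strand) holds X then Y, and the Y letters once more on the other strand. The H2-DMb1 promoter (chr17:34152941-34153240, plus strand) holds X then Y. A match describes the letters and is not a test of binding. Missing X letters do not show that a promoter lacks an X box.
H2-Aa: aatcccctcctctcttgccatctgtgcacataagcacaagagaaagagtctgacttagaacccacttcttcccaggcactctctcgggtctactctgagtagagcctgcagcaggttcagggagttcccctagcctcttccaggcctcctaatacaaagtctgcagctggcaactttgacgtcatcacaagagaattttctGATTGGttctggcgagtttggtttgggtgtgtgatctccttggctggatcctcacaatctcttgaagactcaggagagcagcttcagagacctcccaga
H2-Eb1: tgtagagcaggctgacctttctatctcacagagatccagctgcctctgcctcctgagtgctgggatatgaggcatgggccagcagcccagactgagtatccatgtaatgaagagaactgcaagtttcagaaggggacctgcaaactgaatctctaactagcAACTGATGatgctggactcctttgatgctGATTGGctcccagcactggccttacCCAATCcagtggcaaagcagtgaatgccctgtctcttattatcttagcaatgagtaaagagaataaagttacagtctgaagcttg
H2-DMb1: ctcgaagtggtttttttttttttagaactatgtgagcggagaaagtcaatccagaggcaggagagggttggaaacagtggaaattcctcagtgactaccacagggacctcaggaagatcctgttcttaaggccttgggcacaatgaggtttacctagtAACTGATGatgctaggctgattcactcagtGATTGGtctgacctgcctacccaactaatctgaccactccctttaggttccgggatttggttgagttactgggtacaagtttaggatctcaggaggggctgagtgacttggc

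Genes outside the defining 4 were compared between 81 class II-expressing and 67 class II-negative cells, in the 7 plates with at least 3 cells of each class. Counts were summed by plate and class and tested with edgeR's quasi-likelihood test, with plate and mean genes detected in the fit. In L32 the class II-negative sums held 3 to 8 cells per plate. That of L32 HSC-3 had 2226848 gene counts from 4 cells, 1372561 of them in 1 cell. Its levels, among them those of Selp, Slamf1 and Vwf below, weigh that cell most. Of 9586 genes tested, 0 (0%) passed a Benjamini-Hochberg adjusted p of 0.05. At an unadjusted p under 0.05 there were 415 genes (4.33%), of which 340 (3.55%) were higher and 75 (0.782%) lower in class II-expressing cells. By limma over the per-set differences, 0 passed the adjusted threshold and 518 (5.4%) the unadjusted one, 246 (2.57%) higher and 272 (2.84%) lower. By DESeq2, 344 genes (3.59%) passed an adjusted p of 0.05, 291 (3.04%) higher and 53 (0.553%) lower. On simulated counts with these library sizes the edgeR test recovered 0 of 100 genes changed 2-fold and 6 of 100 changed 4-fold. Differences of 2-fold and most of 4-fold were therefore not detectable at this design, and gene values are given without a call. The median edgeR log2 fold change of all genes was 0.27, and the median difference over sets was −0.01 on the log2(CPM/10 + 1) scale.

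Among genes of antigen loading, H2-DMb1, the beta chain of the peptide exchange factor, differed most clearly. Its summed level in class II-expressing cells was 247 CPM in L32 HSC-2, 218 in L32 HSC-3, 48.8 in L32 HSC-4, 247 in L32 HSC-5, 104 in L29 HSC-3 and 82.8 in L29 HSC-4. In class II-negative cells of the same sets it was 54.1, 31.4, 14.7, 32.4, 77.4 and 19.3 CPM in that order. The class II-expressing cells were higher in each of the 6 sets, while the ranges over sets overlapped. The edgeR log2 fold change was 2.49 ± 0.54 (SE; unadjusted p = 0.0019, adjusted p = 1.00). Limma over the 6 sets gave a difference of 1.32 ± 0.35 (SE; unadjusted p = 0.00483, adjusted p = 0.878), positive in 6 of 6 sets, as for 1.69% of all genes. DESeq2 gave an adjusted p of 0.00011, and without L32 HSC-5 the class difference of H2-DMb1 in edgeR was 2.13 with an unadjusted p of 0.233. The gene lies at chr17:34153072-34160230 (mm10, plus strand), beside its near-identical copy H2-DMb2, and no source used here states how reads that match both were counted. H2-DMb2 itself was detected in 15.1% of class II-expressing and 14.3% of class II-negative cells in L32, and in 15.0% and 4.76% in L29. Its summed level ranged from 2.44 to 79.1 CPM over sets in class II-expressing cells and from 0 to 8.55 CPM in class II-negative cells, higher in class II-expressing cells in 6 of 6 sets, with 3 of 14 sums at 0.

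Within L32, H2-DMb1 was detected in 56 of 86 class II-expressing cells (65.1%, exact 95% interval 54.1 to 75.1%) and 8 of 28 class II-negative cells (28.6%, 13.2 to 48.7%). Within L29 it was detected in 8 of 20 class II-expressing cells (40.0%, 19.1 to 63.9%) and 11 of 42 class II-negative cells (26.2%, 13.9 to 42.0%). The intervals were apart in L32 and overlapped in L29. They pool cells over sets and are not a test of the classes. The difference per set was 1.84 to 2.34 in the 4 L32 sets and 0.12 and 0.29 in the 2 L29 sets, on the log2(CPM/10 + 1) scale. The interaction of class with series was not significant in edgeR (log2 difference L32 minus L29 0.73, unadjusted p = 0.572, adjusted p = 1.00), and 305 genes (3.18%) passed the unadjusted threshold for it. With each cell thinned to 100000 reads the L32 shares were 68.6% in class II-expressing and 28.6% in class II-negative cells. By the number of defining genes, H2-DMb1 was detected in 28.6% of L32 cells with 0 genes, 44.8% with 1, 58.3% with 2, 68.0% with 3 and 67.6% with 4. In L29 the shares were 26.2%, 40.7%, 27.3%, 40.0% and 75.0% in the same order, with 5 cells at 3 genes and 4 cells at 4, and did not climb evenly.

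H2-DMa, the partner chain, was less evenly different between sets. Its summed level ranged from 146 to 343 CPM over sets in class II-expressing cells (median 216 CPM) and from 48.3 to 195 CPM in class II-negative cells (median 179 CPM), and it was higher in the first class in 4 of 6 sets. The edgeR log2 fold change was 1.23 ± 0.32 (SE; unadjusted p = 0.00507, adjusted p = 1.00), and without L32 HSC-5 it was 0.17. It was detected in 70.9% of class II-expressing and 53.6% of class II-negative cells within L32, and in 60.0% and 40.5% within L29. Of the H2-O chains that modulate H2-DM, H2-Oa passed the filter. It was detected in 27.9% of class II-expressing and 10.7% of class II-negative cells in L32, and in 20.0% and 2.38% in L29. Its summed level was higher in class II-expressing cells in 4 of 6 sets, and its log2 fold change of 3.44 had an SE of 1.75, with 2 of 14 sums at 0. H2-Ob reached 10 CPM in 7.41% of class II-expressing and 7.46% of class II-negative cells tested.

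Of the cathepsins that process the invariant chain, Ctss and Ctsl passed the filter, and their detection was not itself tested. Ctss was at 10 CPM in 30.2% of class II-expressing and 17.9% of class II-negative cells in L32, and in 20.0% and 2.38% in L29. Its summed level over sets had a median of 74.8 CPM (9.82 to 118) in class II-expressing cells and 20.5 CPM (0 to 61.5) in class II-negative cells. By summed level L29 HSC-4 ran the other way, at 20.0 CPM in class II-expressing and 25.7 CPM in class II-negative cells. Limma over the sets gave a difference of 0.70 ± 0.26 (SE; unadjusted p = 0.0265, adjusted p = 0.893), positive in 6 of 6 sets, while edgeR gave a log2 fold change of 2.50 ± 1.485 (SE; unadjusted p = 0.133, adjusted p = 1.00). Ctsl, which trims the invariant chain mainly in thymic epithelium, ranged from 55.2 to 268 CPM over sets in class II-expressing cells (median 109) and from 96.3 to 368 CPM in class II-negative cells (median 235), lower in class II-expressing cells in 5 of 6 sets (edgeR log2 fold change −0.88, unadjusted p = 0.0605, adjusted p = 1.00). It was detected in 57.0% of class II-expressing and 57.1% of class II-negative cells in L32, and in 40.0% and 33.3% in L29.

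The transcription factors of the class II promoter showed no common direction. Nfya, Nfyb and Nfyc encode NF-Y, Rfxank a subunit of RFX, and Creb1 the CREB protein. In L32 the shares of class II-expressing and class II-negative cells were 15.1% and 21.4% for Nfya, 31.4% and 21.4% for Nfyb, 34.9% and 39.3% for Nfyc, and 31.4% and 32.1% for Rfxank. For Creb1 they were 37.2% and 32.1%. In L29 they were 30.0% and 23.8% for Nfya, 15.0% and 19.0% for Nfyb, 40.0% and 21.4% for Nfyc, 10.0% and 9.52% for Rfxank, and 50.0% and 21.4% for Creb1. Nfya, Nfyb and Nfyc thus ran opposite ways in the library series. Their unadjusted edgeR p-values ran from 0.081 for Creb1 to 0.941 for Rfxank. Ciita, the coactivator that switches the family on, was too rare for the test: it reached 10 CPM in 4.94% of 81 class II-expressing and 2.99% of 67 class II-negative cells. Rfx5 reached it in 8.64% and 7.46% and Rfxap in 2.47% and 5.97%. At this depth a low-abundance regulator can be missed in a cell that expresses it, so these shares do not show absence.

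Over the list of 24 loading and regulator genes, 12 passed the filter on low values. Of these, 2 (H2-DMb1 and H2-DMa) had an unadjusted edgeR p under 0.05, both higher, beside 3.55% of all genes. The median edgeR log2 fold change of the 12 was 1.33, beside 0.27 for all 9586 genes, and their median difference over sets was 0.31, beside −0.01. In L32, 8 of the 12 were detected in a larger share of class II-expressing cells, beside 53.2% of all genes. In L29 it was 11 of the 12, beside 70.7% of all genes. The other 12 members were below the filter. Cd80 and Cd83 had no reads in either class, Cd40 and H2-Eb2 reached 10 CPM in no tested cell, and Cd86, a costimulatory ligand, reached it in 6.17% of class II-expressing and 4.48% of class II-negative cells. Cd1d1, which presents lipids and is class I-like, had nearly equal shares in L32, at 47.7% of class II-expressing and 46.4% of class II-negative cells, and 35.0% and 7.14% in L29.

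**Figure D3:**
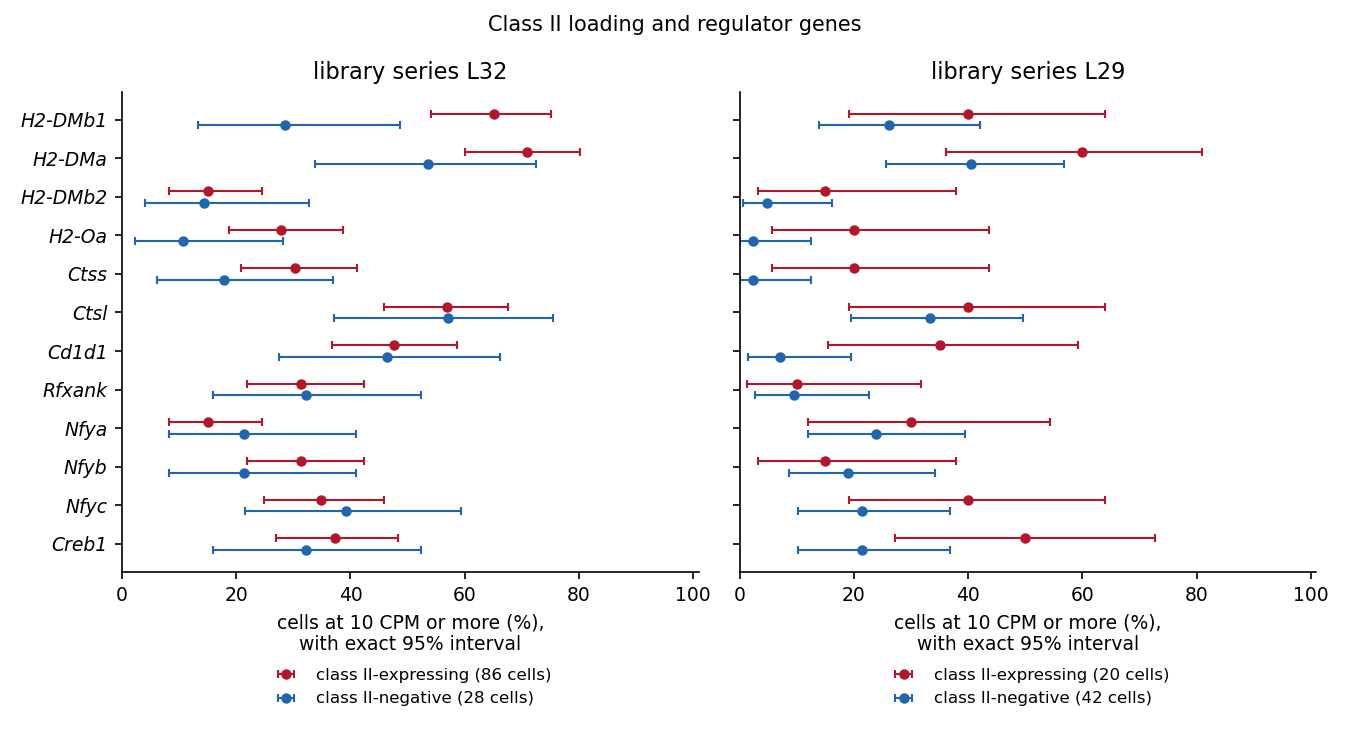
Share of cells at 10 CPM or more (%), with exact 95% intervals, for the 12 tested class II loading and regulator genes, in class II-expressing (red) and class II-negative (blue) cells within L32 (left) and L29 (right). H2-DMb1 in L32 is the gene whose intervals lie apart, at 65.1% in class II-expressing and 28.6% in class II-negative cells. The intervals pool cells over sets and are not a test of the classes.

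Among class I genes, H2-Q7, a class Ib gene, had the higher summed level in class II-expressing cells of every set. B2m, the class I light chain, ranged from 6547 to 11494 CPM over sets in class II-expressing cells and from 6543 to 10595 CPM in class II-negative cells, higher in class II-expressing cells in 3 of 6 sets. Its limma difference was 0.24 (unadjusted p = 0.154, adjusted p = 0.931), positive in 6 of 6 sets. H2-K1, a classical heavy chain, was higher in class II-expressing cells in 4 of 6 sets, with an edgeR log2 fold change of 0.06. H2-Q7, chosen after its values were seen, ranged from 365 to 686 CPM over the sets in class II-expressing cells (median 422) and from 82.6 to 340 CPM in class II-negative cells (median 215). By summed level the class II-expressing cells were higher in 6 of 6 sets and the 2 ranges did not overlap. The closest set, L29 HSC-3, had 365 and 340 CPM. The share of all genes with ranges apart was not computed. By the difference over cells, 1 tested gene of the class I list was positive in 6 of 6 sets. That gene was B2m, so H2-Q7 was not positive in every set. The edgeR log2 fold change of H2-Q7 was 1.03 ± 0.35 (SE; unadjusted p = 0.0199, adjusted p = 1.00). H2-Q6, a near copy of H2-Q7 that can share its reads, was higher in class II-expressing cells in 5 of 6 sets, and in L32 HSC-3 it was at 295.7 CPM in class II-expressing and 333 CPM in class II-negative cells (edgeR unadjusted p = 0.0681, adjusted p = 1.00). Over the class I list, 22 of 23 genes were tested. Of these, 2 had an unadjusted p under 0.05 (H2-Q7 and the chaperone Calr), beside 4.33% of all genes. The median edgeR log2 fold change of the list was 0.24, beside 0.27 for all genes.

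Interferon-gamma induces class II through Ciita in many cell types, and its pathway genes gave different pictures in the 2 series. Of 24 tested members, 12 were detected in a larger share of class II-expressing cells within L32, beside 53.2% of all genes. Within L29 it was 24 of 24, beside 70.7% of all genes, where class II-expressing cells also had more genes detected. The median edgeR log2 fold change was 0.83 over the list and the median difference over sets 0.24. The unadjusted edgeR p was under 0.05 for Ifngr2 and Jak2, both higher, beside 3.55% of all genes. Tgtp2, a T cell-specific GTPase gene with a near copy in Tgtp1, had an edgeR log2 fold change of 0.71 ± 0.53 (SE; unadjusted p = 0.217, adjusted p = 1.00). By limma its difference was 0.53 (unadjusted p = 0.0233, adjusted p = 0.885), positive in 6 of 6 sets, while by summed level L29 HSC-4 ran the other way, at 121 CPM in class II-expressing and 173 CPM in class II-negative cells. The type I interferon list had a median edgeR log2 fold change of 0.06 over 24 tested genes, and 9 of the 24 were detected in a larger share of class II-expressing cells in L32 and 17 in L29. Bst2, chosen after its values were seen, depended on the scale: it was detected in 72.1% of class II-expressing and 46.4% of class II-negative L32 cells, but its summed level was higher in class II-expressing cells in 2 of 6 sets.

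Of 30 HSC identity genes, all were tested, and their median edgeR log2 fold change was 0.03. Angpt1 ranged from 395 to 1094 CPM over sets in class II-expressing cells and from 548 to 1044 CPM in class II-negative cells. Kit ranged from 239 to 546 CPM in class II-expressing cells and from 350 to 785 CPM in class II-negative cells. The ranges over sets overlapped for these genes. Ly6a, Slamf1 and Mllt3 had an unadjusted p under 0.05, beside 4.33% of all genes, the first higher and the others lower. Ly6a, which encodes the Sca-1 antigen of the sort and was chosen after its values were seen, ranged from 282 to 496 CPM over sets in class II-expressing cells (median 401) and from 67.4 to 429 CPM in class II-negative cells (median 192). Its edgeR log2 fold change was 1.14 ± 0.45 (SE; unadjusted p = 0.0376, adjusted p = 1.00), and the difference over cells was positive in 6 of 6 sets. By summed level the set L29 HSC-4 ran the other way, at 344 CPM in class II-expressing and 429 CPM in class II-negative cells. Slamf1, which encodes CD150 and was also chosen after its values were seen, ranged from 4.16 to 170.2 CPM over sets in class II-expressing cells (median 45.7) and from 41.5 to 548 CPM in class II-negative cells (median 137), with L29 HSC-3 running the other way at 87.5 CPM in class II-expressing and 61.1 CPM in class II-negative cells (edgeR log2 fold change −1.78 ± 0.71, unadjusted p = 0.0385, adjusted p = 1.00).

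Of 12 tested members of a megakaryocyte list, 9 were detected in a smaller share of class II-expressing than of class II-negative cells within L32, beside 4203 of all 9586 genes. Within L29, 9 were detected in a larger share, beside 70.7% of all genes. The median edgeR log2 fold change of the list was −0.64, beside 0.27 for all genes. Selp and Gp9 had an unadjusted p under 0.05, both lower, beside 0.782% of all genes. Selp, which encodes the platelet adhesion receptor P-selectin and was chosen after its values were seen, ranged from 0 to 45.8 CPM over sets in class II-expressing cells (median 5.48) and from 2.38 to 705 CPM in class II-negative cells (median 81.5). It was lower in class II-expressing cells in each of the 6 sets. The 705 CPM came from L32 HSC-3, where 1 of 4 class II-negative cells held 1372561 of 2226848 gene counts. Limma over the sets gave a difference of −0.90 ± 0.28 (SE; unadjusted p = 0.0117, adjusted p = 0.885), negative in 6 of 6 sets, as for 1.41% of all genes. DESeq2 gave an adjusted p of 0.000211. The edgeR log2 fold change was −4.48, and −0.19 without L32 HSC-5, with 2 of 14 sums at 0. Selp was detected in 19.8% of class II-expressing and 39.3% of class II-negative cells in L32, and in 5.00% and 4.76% in L29.

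Vwf, von Willebrand factor, was detected in 16 of 86 class II-expressing cells (18.6%, exact 95% interval 11.0 to 28.4%) and 17 of 28 class II-negative cells (60.7%, 40.6 to 78.5%) in L32. In L29 it was detected in 35.0% of class II-expressing and 21.4% of class II-negative cells. The direction was thus not the same in the 2 series, nor within L32, where its summed level in class II-expressing and class II-negative cells was 46.7 and 247 CPM in HSC-2, 48.0 and 248 CPM in HSC-4 and 56.9 and 283 CPM in HSC-5, but 112 and 14.4 CPM in HSC-3. The edgeR log2 fold change was −1.23 ± 0.81 (SE; unadjusted p = 0.168, adjusted p = 1.00). Clu, which encodes clusterin, was detected in 16.3% of class II-expressing and 42.9% of class II-negative L32 cells. Both genes were chosen after their values were seen. Mef2c, a transcription factor of lymphoid and megakaryocytic development, ranged from 95.2 to 145 CPM over sets in class II-expressing cells and from 157 to 642 CPM in class II-negative cells, lower in 6 of 6 sets by summed level. The edgeR log2 fold change was −0.64 ± 0.31 (SE; unadjusted p = 0.0759, adjusted p = 1.00). Limma gave −1.04 (unadjusted p = 0.0198, adjusted p = 0.885), with a positive difference of 0.27 in L32 HSC-3.

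The genes with the smallest edgeR p-values had no common role. In the higher direction these were Gnptab, Pdpr, Supt3, Ripor1 and Wdr83, and in the lower direction Tlnrd1, Clk1, Rab3gap1, Coro1b and Mat2a. Gnptab, which encodes part of the enzyme that tags lysosomal proteins with mannose 6-phosphate, was higher in class II-expressing cells in 6 of 6 sets, with 5 of 14 sums at 0. Clk1, a kinase of splicing factors, ranged from 280.5 to 777 CPM over sets in class II-expressing cells and from 417 to 1143 CPM in class II-negative cells, lower in 5 of 6 sets. Rab3gap1 was lower only with genes detected in the fit: its log2 fold change was −2.78 with that term and −0.40 without it (unadjusted p = 0.717), and its summed level was higher in class II-expressing cells in 4 of 6 sets. Their adjusted edgeR p was 1.00.

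**Figure D4:**
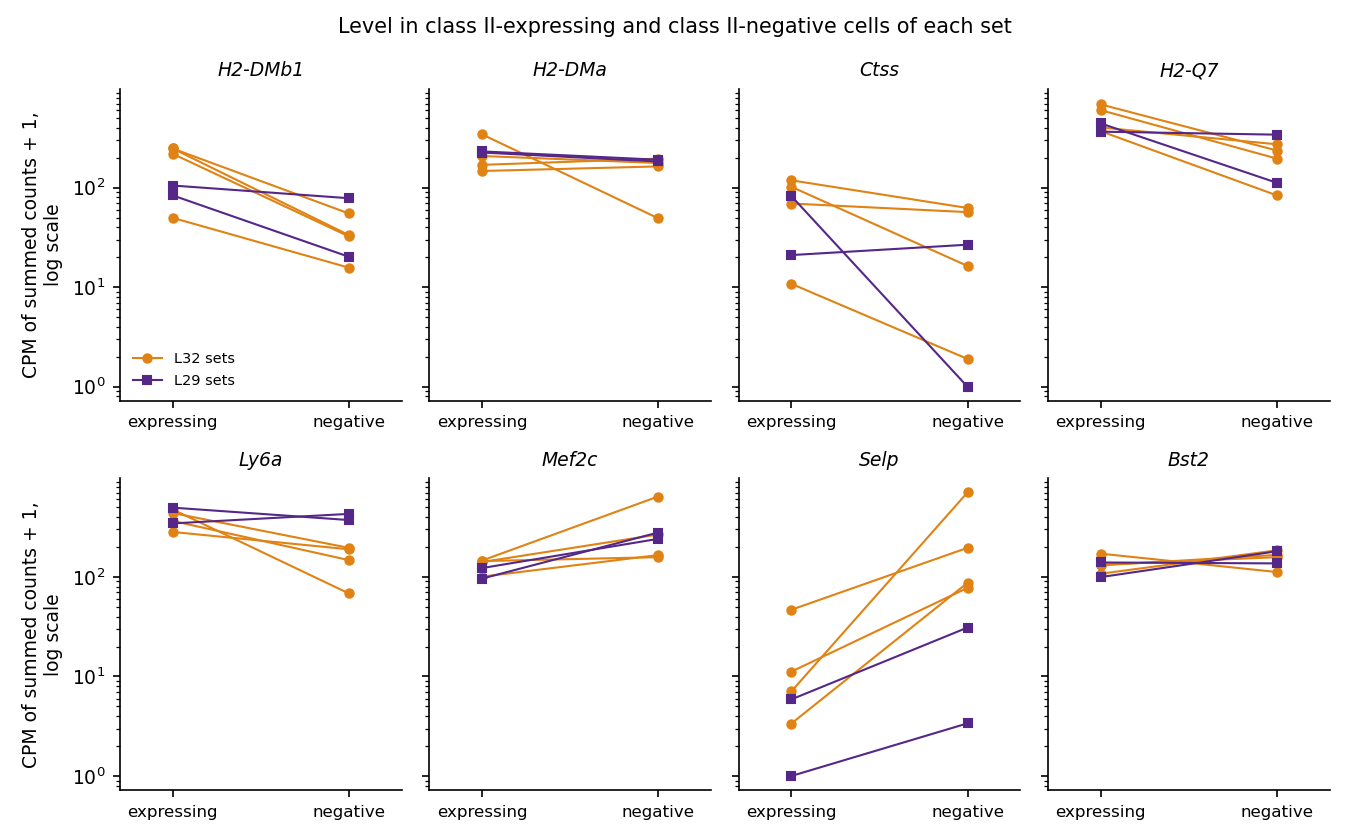
CPM + 1 of summed counts on a log scale for 8 genes in the class II-expressing (left) and class II-negative (right) cells of each set, with L32 sets as orange circles and L29 sets as purple squares. H2-DMb1 and H2-Q7 are higher and Selp and Mef2c lower in the class II-expressing cells of all 6 sets. H2-DMa, Ctss, Ly6a and Bst2 cross.

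**Figure D5:**
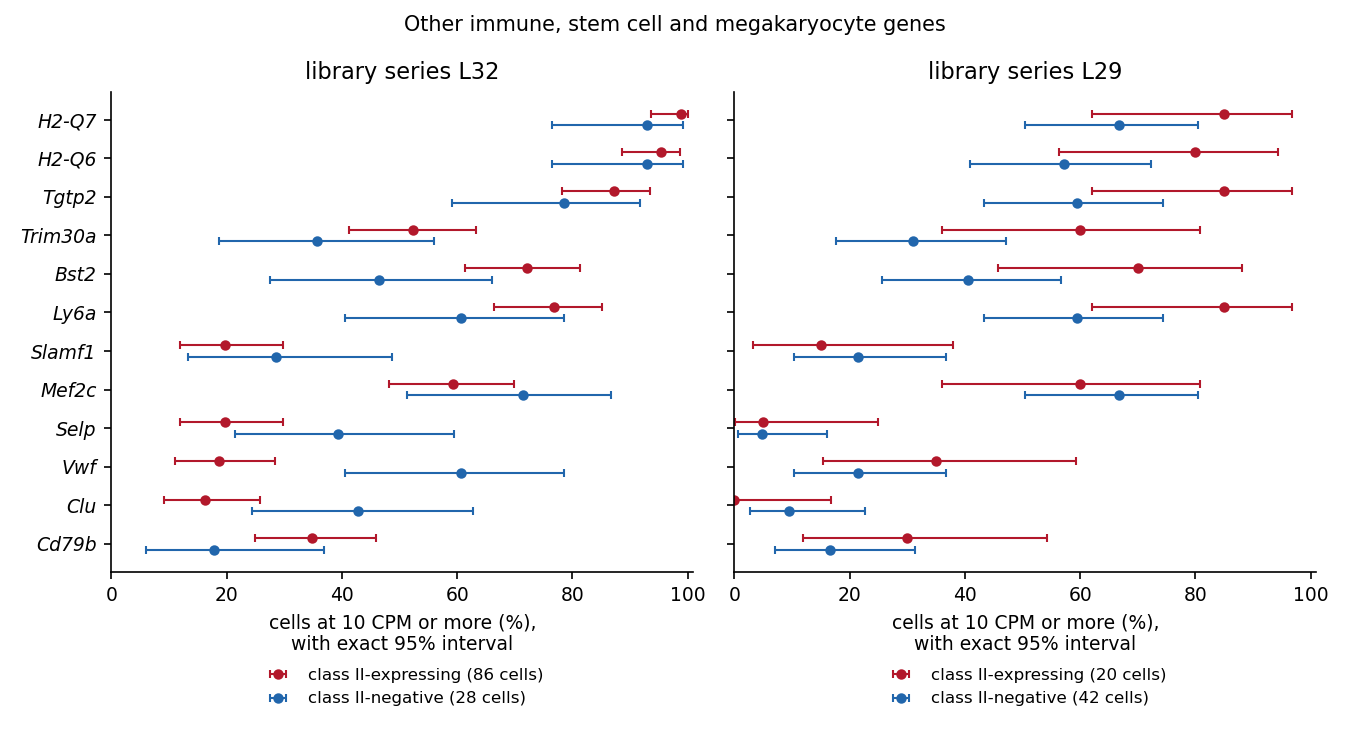
Share of cells at 10 CPM or more (%), with exact 95% intervals, for 12 genes in class II-expressing (red) and class II-negative (blue) cells within L32 (left) and L29 (right). In L32, Vwf is at 18.6% in class II-expressing and 60.7% in class II-negative cells, while in L29 it is at 35.0% and 21.4%.

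Markers of the mature cells that carry class II were also measured. The sort took lineage-negative CD48-/lo CD150+ cells, and its purity was not tested. Of 17 B cell genes, 2 reached 10 CPM in at least 10% of class II-expressing cells and 3 in at least 10% of class II-negative cells. The list summed to 104 to 238 CPM over sets in class II-expressing cells (median 154) and 40.6 to 215 CPM in class II-negative cells (median 64.4). Vpreb3, Fcmr and Blk had no reads in class II-expressing cells, and Ms4a1, Igkc, Vpreb3, Fcmr and Blk none in class II-negative cells. Cd79b, a chain of the B cell receptor complex, was detected in 34.9% of class II-expressing and 17.9% of class II-negative cells in L32, and in 30.0% and 16.7% in L29. The cells with at least 3 B cell genes numbered 1 of 106 class II-expressing and 0 of 70 class II-negative. That cell, in L32 HSC-3, also had the most detected genes of its class, 13734 from 206220 gene counts.

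Of 20 dendritic cell and macrophage genes, 4 reached 10 CPM in at least 10% of class II-expressing and 3 of class II-negative cells. That list summed to 420 to 865 CPM over sets in class II-expressing cells (median 522) and 361 to 823 CPM in class II-negative cells (median 501). Batf3 had no reads in class II-expressing cells, and Siglech, Cd209a, Adgre1, C1qa and Batf3 had none in class II-negative cells. Cells with at least 3 of these genes numbered 26 of 106 class II-expressing and 13 of 70 class II-negative. Without the cells with 3 or more genes of either list, the class difference of H2-DMb1 was a log2 fold change of 2.16 (unadjusted p = 0.00377, adjusted p = 1.00) in edgeR and 0 genes passed the adjusted threshold. The part of these markers in the other differences was not tested.

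Wells that were not kept and had fewer gene reads than spike-in reads are called near-empty here. They carry the HSC label, and 1 of them held 74667 gene reads. Stray reads were not told apart from RNA of a poorly captured cell. There were 38 such wells, in L32 HSC-2 and L32 HSC-3, with 616795 gene reads together. H2-Aa stood at 37.3 CPM in them, against 485 CPM in the 66 kept cells of the same sets. Cd74 stood at 40.5 CPM in near-empty wells and 478 CPM in kept cells, H2-Eb1 at 56.7 and 212 CPM, and H2-DMb1 at 3.24 and 141 CPM. H2-Ab1 was at 378 CPM in near-empty wells and 260 CPM in kept cells, with 220 of its 233 reads in 1 well and 22.5 CPM without that well. By contrast B2m, an abundant transcript, was at 11072 CPM in near-empty wells and 7174 CPM in kept cells. A kept class II-expressing cell of L32 HSC-3 had 116009 gene reads and 247919 spike-in reads, with all 4 defining genes at 10 CPM. That cell is counted among the 66 kept cells here.

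The classes differed in library quality by less than the spread of the sets, with 1 set apart. Class II-expressing cells had a median of 5370.5 detected genes and class II-negative cells 4966, and the difference within sets averaged 401 ± 597 genes (SD, n = 6 sets), positive in 5 of 6 (exact two-sided sign-flip permutation p = 0.188, 0.375 adjusted over 4 measures). Median gene counts were 290714 in class II-expressing and 268786 in class II-negative cells (exact permutation p = 0.688, adjusted 0.875). Gene reads per spike-in read, a measure of RNA content, had medians of 17.1 in class II-expressing and 17.3 in class II-negative cells, with a mean difference over sets of 4.84 (exact permutation p = 0.125, adjusted 0.375). That mean was 1.02 without L29 HSC-4, where the difference was 23.9. The mitochondrial share had medians of 3.55% and 3.83% (exact permutation p = 0.875, adjusted 0.875). In L29 HSC-4 the medians were 5361 genes in class II-expressing and 3935.5 in class II-negative cells, and 34.9 and 11.0 gene reads per spike-in read. The part of these gaps in the gene values of that set was not tested.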

How the data were processed

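PolyA RNA of 282 single HSCs was sequenced with spike-in RNA added. The authors deposited read counts per gene, made with GSNAP and featureCounts 1.6.2 on mm10 with Ensembl 87, per the submitters' processing notes and the labels. Counting of strand and of reads with several matches is not stated in the labels. Kept cells had at least 100000 counts on mouse genes and 1000 genes. Spike-in and transgene rows, 11.7% of counts for the spike-ins, stayed out of totals. Members and gene lists were chosen with earlier results of these data known.

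Counts were summed per plate and class, where each class had at least 3 cells, for genes at 10 CPM in at least 10% of the cells compared. edgeR 4.0.16 (R 4.3.3) gave the main test, with plate and mean genes detected as terms, 14 sums and 5 residual degrees of freedom. Limma 3.58.1 tested per-set class coefficients of log2(CPM/10 + 1), fitted over cells with genes detected and plate. DESeq2 1.42.0 was an alternative. P-values were adjusted by Benjamini-Hochberg over all 9586 genes, without the 4 class genes. Library quality was compared by an exact two-sided sign-flip permutation over 6 sets. Python 3.11.15, pandas 2.3.3 and scipy 1.17.1 were used, with exact (Clopper-Pearson) 95% intervals. The edgeR step was tested on simulated data. Doublets were not called, since each well was sorted for 1 cell, and whether any well held more was not tested. Detected genes per cell ran up to 13734 in class II-expressing and 9213 in class II-negative cells. Genes named were every tested class II list member, the 5 smallest p-values per direction and the 3 most abundant members of other lists. All other genes named were chosen after their values were seen.

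Values of some list members are not reported here.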

Additional observations from a re-analysis of the deposited data

Results flagged for a closer look

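In 19 sets of 6 values, a set was picked out where its gap to the next was large against the whole range by Dixon's 95% critical value, which chance exceeds in about 1 of 20. In L29 HSC-4 the class II-expressing minus class II-negative difference in gene reads per spike-in read was 23.9, and in mitochondrial share −2.56 points, both far from the other sets. For Creb1 the set difference in L32 HSC-4 was −1.62 on the log2(CPM/10 + 1) scale, while the other 5 sets were positive.

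Reads of the H2B-GFP transgene, which was not induced, were found in 19 kept cells, 228 reads in all. Class II-expressing cells held 69 reads in 7 cells, of which 61 were in 1 cell, and class II-negative cells 133 reads in 7 cells, of which 126 were in 1 cell. Near-empty wells held H2-Ab1 at 378 CPM, nearly all from 1 well, as given above.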

How the results depend on the processing

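The count of genes past the adjusted threshold was 0 in edgeR and limma under every alternative run, and 344 with DESeq2. The cause of that gap was not tested. For 110 genes named, the fold kept its direction and call in 2283 gene and setting pairs, moved in 197 and was newly called in 18, the last by DESeq2.

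The share of class II-expressing cells was 48.3% at 5 CPM, 43.5% at 20 CPM, 30.6% from 3 of 4 genes, 49.1% after thinning, 48.0% in 198 cells under the stricter cell filter and 35.8% without Cd74, the last chosen after seeing the data. Leaving out a set gave 41.9 to 51.6%. The difference in total gene counts changed sign to −6933.5 with plates pooled, and ran from −2662 to 21275 over left-out sets, with −1756 without L29 HSC-4. The difference in mitochondrial share ran from −0.408 to 0.246 points, the last without L29 HSC-4. The difference in genes detected per cell ran from 197 to 569.8 and the difference in gene reads per spike-in read from 1.02 to 5.84. H2-DMb1 had an unadjusted p of 0.233 without L32 HSC-5. All comparisons of the classes were made within plates or sets, and no other pairing was tried.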

Other observations

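Some genes outside the lists differed in detection in both library series. They were chosen after their values were seen, and none passed an adjusted threshold. Of all 9586 genes, 53.2% in L32 and 70.7% in L29 had the larger share in class II-expressing cells. The share of genes with 1 direction in both series is not given. Glmp, which encodes a lysosomal membrane glycoprotein, was detected in 64.0% of class II-expressing and 39.3% of class II-negative cells in L32, and in 65.0% and 23.8% in L29. Hmox2, the constitutive heme oxygenase, was detected in 61.6% and 42.9% in L32 and in 80.0% and 40.5% in L29. Limma gave it a difference of 1.10 (unadjusted p = 0.000116, adjusted p = 0.878), positive in 6 of 6 sets, as for 1.69% of all genes. Ccdc59 was detected in 26.7% of class II-expressing and 64.3% of class II-negative cells in L32, and in 15.0% and 31.0% in L29.

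Of 23 S phase genes, 20 were detected in a larger share of class II-expressing cells in L32, beside 53.2% of all genes, and 16 in L29, beside 70.7%. The median edgeR log2 fold change of the list was 0.58 and its median difference over sets −0.07, so the measures differ in sign. Of 20 lysosome genes, 11 had the larger share in class II-expressing cells in L32 and 20 in L29.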
